A study of Mus musculus with 2 samples.

Results

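The SLC25 family of mitochondrial carriers was taken as every gene with a protein-coding transcript whose symbol is Slc25a followed by a digit. The rule gave 47 genes of 22028 protein-coding genes and 55536 annotated genes. Total RNA was sequenced from 2 heart samples of female mice of the strain B6CASTF1/J, an F1 hybrid of C57BL/6J and CAST/EiJ, at 4 days of age. The animals carried no treatment or engineered allele per the labels, each library started from 300 ng of RNA with ribosomal RNA reduced and synthetic ERCC spike-in RNAs added, and the labels give both libraries the same donor but separate biological replicate numbers. The labels also number the female of each sample differently, and the samples are called hearts here on the basis of these numbers. They form 1 group, so there is no contrast between conditions and no p-value, and the spread between the libraries may be partly technical.

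SLC25 proteins sit, with few exceptions, in the inner mitochondrial membrane and exchange metabolites between the cytosol and the matrix. They carry the phosphate and ADP that ATP synthase uses and the ATP that it makes, the acylcarnitines of fatty acid oxidation, the members of the malate-aspartate shuttle, amino acids, cofactors and metals. Heart muscle draws most of its energy from mitochondria, and around birth it moves toward fatty acids as fuel.

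Depth was 36175363 expected counts in replicate 1 and 32509660 in replicate 2, where an expected count is an estimate of reads that need not be whole. A count of 0 allows up to 3 counts, or 0.0834 and 0.0928 CPM (counts relative to the depth of the library) in replicates 1 and 2, for counting error only. Levels are given in TPM, an abundance scaled for transcript length and depth, as mean ± SD of 2 libraries or as both values. All 9 cardiomyocyte markers listed were expressed, with summed TPM of 35667 and 36196 in replicates 1 and 2, and no liver marker of 6 reached a TPM of 1 in both. In bulk tissue, fewer cells of a type and less RNA per cell cannot be told apart.

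Of the 47 carriers, 37 reached a TPM of 1 in each heart and are called expressed, a share of 78.7%, against 54.2% of all protein-coding genes. The median TPM of the expressed carriers was 12.1, against 12.5 for all expressed protein-coding genes, and 18 of the 37 lay above that protein-coding median. The upper end was long: 7 carriers lay in the top 10% of expressed protein-coding genes, above a TPM of 64.7, and the highest carrier was 879-fold above the lowest expressed one. Summed over the family, the carriers held 3373 ± 0.636 TPM. Slc25a4, Slc25a3 and Slc25a5 held 77.9% ± 0.403 of that sum.

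**Figure D1:**
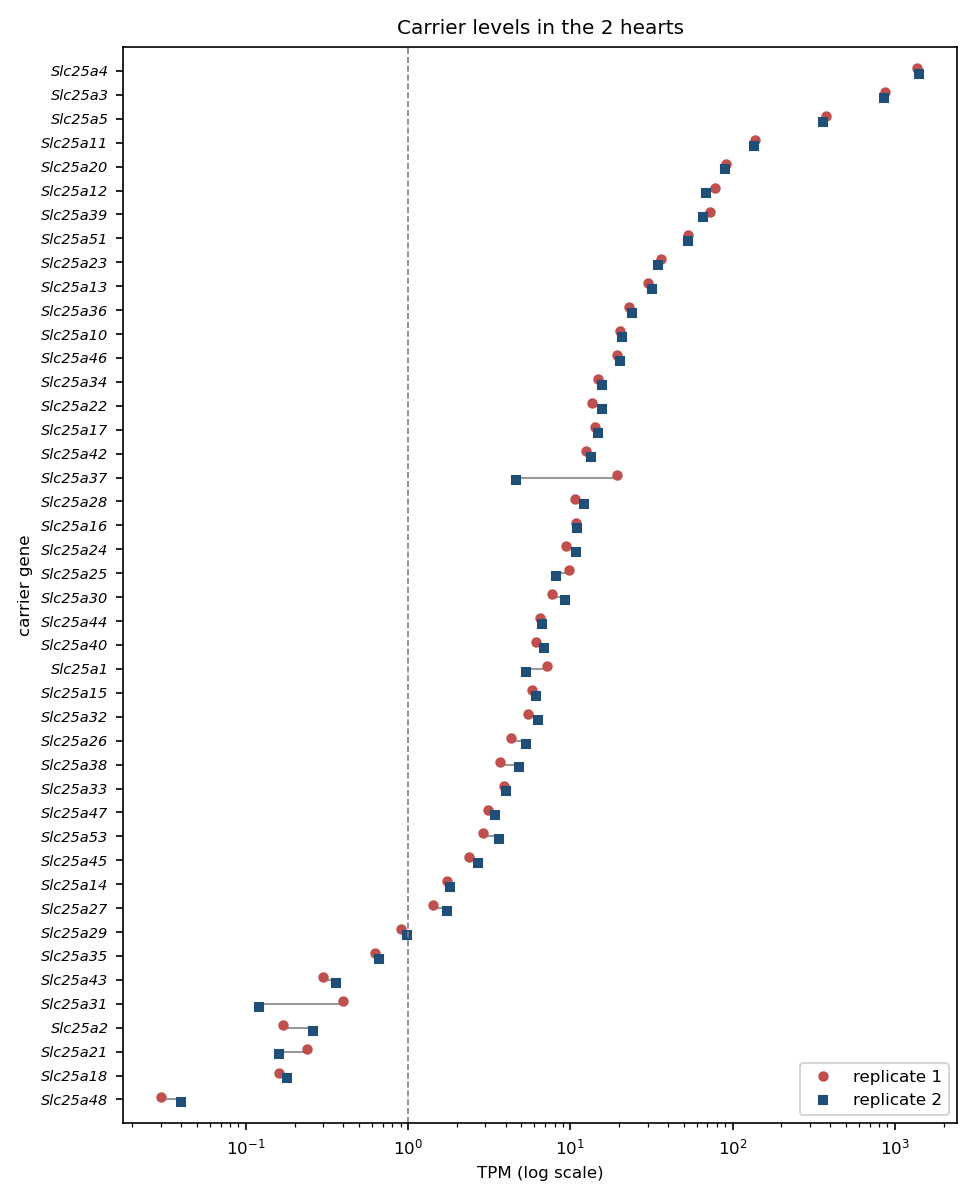
TPM on a log scale of 44 carriers with a TPM above 0 in both hearts, ordered by mean, with replicate 1 as circles, replicate 2 as squares and a dashed line at a TPM of 1. The libraries lie close together for most carriers above the line, Slc25a37 is the exception among them, and 36 of the carriers shown lie above the line in both.

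Ranked by mean TPM, the 37 expressed carriers form 36 neighbouring pairs. In 19 of these both libraries of the higher gene lay above both libraries of the lower gene, and in 17 they overlapped. By this TPM, the order was resolved from Slc25a4 through Slc25a3, Slc25a5, Slc25a11 and Slc25a20 down to Slc25a12. Slc25a12 and Slc25a39 overlapped. The lower steps depend on the scale. By CPM, Slc25a12 lay above Slc25a20 in each library, at 125 and 119 against 120 and 116 in replicates 1 and 2. In the second quantification, described below, Slc25a39 lay above Slc25a12, at 123 and 113 against 87.0 and 94.8 TPM, and overlapped Slc25a20. Slc25a37 overlapped Slc25a28, the next gene below it.

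Carriers of phosphate and adenine nucleotides dominated the family, with 2683 ± 12.8 TPM over 8 genes, or 79.5% ± 0.365 of the sum. Slc25a4 encodes ADP/ATP carrier 1, which exports ATP from the matrix in exchange for ADP and is the form typical of heart and skeletal muscle. It had 1375 TPM in replicate 1 and 1413 in replicate 2, rank 31 among 11948 expressed protein-coding genes. Slc25a5, ADP/ATP carrier 2, found in many tissues, had 377 and 362 TPM in replicates 1 and 2, rank 192. Slc25a4 was thus above Slc25a5 in both hearts, 3.77-fold on average, with a log2 ratio of 1.92 ± 0.07. Slc25a31, ADP/ATP carrier 4 of the germ line, had 23 and 6 counts, or 0.40 and 0.12 TPM, in replicates 1 and 2.

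How far the reads of Slc25a4 and Slc25a5 can be told apart bears on that ratio, so the starts of their coding sequences are shown. Both coding sequences have 894 bases, of which 692 are identical, or 77.4%. The first 120 bases, read 5′ to 3′ from the GENCODE M21 transcripts, run across an intron in mm10, at chr8:46209500-46210922 for Slc25a4 (minus strand) and chrX:36795731-36796851 for Slc25a5 (plus strand). Capitals mark the bases that differ between the genes; 94 of the 120 are identical.
Slc25a4: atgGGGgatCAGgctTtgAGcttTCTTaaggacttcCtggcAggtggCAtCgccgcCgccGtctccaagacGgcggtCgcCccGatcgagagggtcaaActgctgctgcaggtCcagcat
Slc25a5: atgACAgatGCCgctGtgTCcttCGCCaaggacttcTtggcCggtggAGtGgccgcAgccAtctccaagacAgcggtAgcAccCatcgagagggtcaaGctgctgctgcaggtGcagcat
Differing bases are spread along the stretch. The posterior SD of the count, the authors' measure of how uncertain the assignment of shared reads is, was 0 for Slc25a4 in both libraries and at most 0.523% of the count for any expressed carrier. A single pseudogene named after a carrier, Slc25a5-ps, was listed with 0 and 0.35 counts in replicates 1 and 2. Copies under other names were not looked for. The quantifications differed by more than the posterior SD. In the second, Slc25a4 had 74151 and 67110 counts in replicates 1 and 2, against 67833 and 61146 in the first. Slc25a5 had 10529 and 8974, against 12032 and 10105. The log2 ratio of TPM was 2.04 there.

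Slc25a3, the phosphate carrier that brings phosphate into the matrix for ATP synthesis, was the next highest with 866 and 863 TPM in replicates 1 and 2, rank 45. The gene holds a pair of alternative coding exons, of which a transcript normally uses one. In mammals the form with the upstream exon is known as the A form of heart and skeletal muscle, and the form with the downstream exon as the B form of most tissues. The exon sequences are given because the division of reads between the forms rests on them. The upstream exon has 125 bases (mm10 chr10:91122207-91122331, minus strand, coding) and the downstream exon 122 bases (mm10 chr10:91121922-91122043, minus strand, coding). Capitals mark bases that differ or have no partner in the alignment, in which 80 of 126 columns are identical (63.5%).
upstream exon: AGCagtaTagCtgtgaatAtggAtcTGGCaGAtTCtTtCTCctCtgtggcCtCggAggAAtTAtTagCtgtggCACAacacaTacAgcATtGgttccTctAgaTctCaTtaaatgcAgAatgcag
downstream exon: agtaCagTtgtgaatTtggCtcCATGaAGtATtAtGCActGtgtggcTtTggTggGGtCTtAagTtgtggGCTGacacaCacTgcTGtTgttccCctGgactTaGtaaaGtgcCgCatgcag
Of the TPM of transcripts holding only one of these exons, the upstream exon took 84.7% in replicate 1 and 85.3% in replicate 2, a mean of 85.0% ± 0.41. The downstream exon took 15.3% and 14.7% in replicates 1 and 2. Slc25a3-206, a transcript with the upstream exon, alone held 83.0% and 83.7% of the gene's TPM. A second quantification of the same libraries, deposited by the authors in another layout, put the upstream share lower, at 72.1% ± 0.151. The upstream exon led in both hearts by both methods, and the methods differed by far more than the hearts did.

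**Figure D2:**
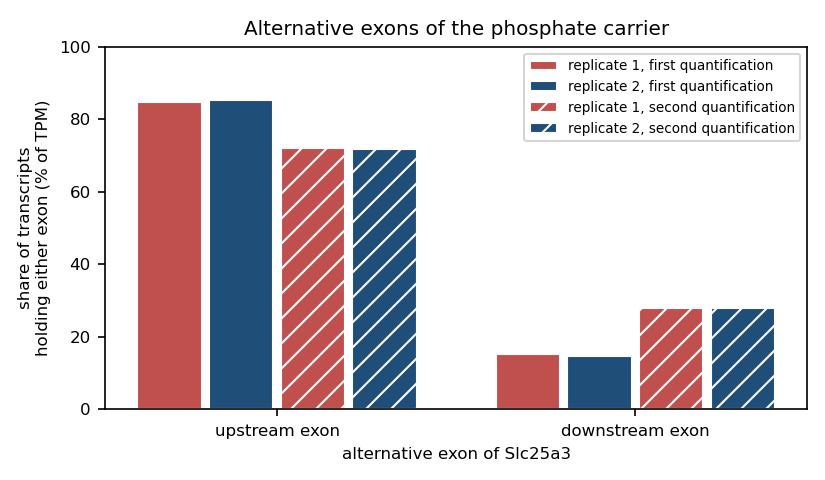
Share, in percent of TPM, of Slc25a3 transcripts with the upstream or the downstream alternative exon, for replicate 1 and replicate 2 in each quantification (hatched bars, the second). The upstream exon takes 84.7% and 85.3% in the first quantification and a mean of 72.1% in the second.

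The remaining carriers of this role exchange ATP-Mg for phosphate, and so set the adenine nucleotide content of the matrix; calcium regulates Slc25a23, Slc25a24 and Slc25a25. Slc25a23 had 36.2 and 34.9 TPM in replicates 1 and 2, and Slc25a24 had 9.44 and 10.9. Slc25a23 stood 3.51-fold above Slc25a24, with a log2 ratio of 1.81 ± 0.18. Slc25a25 had 9.84 and 8.15 TPM in replicates 1 and 2 and overlapped Slc25a24, but lay above it in both libraries in the second quantification, with a log2 ratio of 0.26. Slc25a41, which lacks the calcium-binding domain, had 1 count in replicate 1 and 0 in replicate 2.

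Carriers of carboxylates and fatty acyl groups held 254 ± 3.32 TPM, and 4 of 5 were expressed. Slc25a11, the oxoglutarate/malate carrier of the malate-aspartate shuttle, had 138 and 135 TPM in replicates 1 and 2. It was 6.65-fold above Slc25a10, the dicarboxylate carrier, at 20.3 and 20.9 TPM. Slc25a20 moves acylcarnitines into the matrix for fatty acid oxidation and had 91.2 and 90.4 TPM in replicates 1 and 2. It stood 95.7-fold above its relative Slc25a29, a carrier of basic amino acids that lay just under the threshold at 0.91 and 0.99 TPM. Slc25a1, which exports the citrate used for lipid synthesis, averaged 6.28 ± 1.32 TPM. Slc25a21, the oxodicarboxylate carrier, had 10 and 5 counts in replicates 1 and 2.

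Carriers of amino acids held 137 ± 2.09 TPM, and 6 of 9 were expressed. The calcium-regulated aspartate/glutamate carriers of the malate-aspartate shuttle led them. Slc25a12 (aralar), known as the form of heart, muscle and brain, had 77.5 and 68.4 TPM in replicates 1 and 2. Slc25a13 (citrin), known as the form of liver, had 30.1 and 32.1 TPM. Summed over all transcripts of each gene, Slc25a12 was 2.34-fold above Slc25a13, with a log2 ratio of 1.23 ± 0.19, or 0.82 by CPM. The order was the other way by the TPM assigned to protein-coding transcripts, given next.

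Most of the TPM of Slc25a12 lay in a transcript not classed as protein-coding. Slc25a12-207, which the annotation classes as a target of nonsense-mediated decay, held 50.2 and 48.5 TPM in replicates 1 and 2, or 64.7% and 70.9% of the gene. Slc25a12-206, the protein-coding transcript, held 6.07 and 6.34 TPM. Slc25a13-203, the leading protein-coding transcript of Slc25a13, held 28.6 and 30.3 TPM in replicates 1 and 2. By the TPM assigned to protein-coding transcripts, Slc25a12 thus lay below Slc25a13 in both hearts. That order rests on how reads were divided among the annotated transcripts. In the second quantification Slc25a12-206 had 11.0 and 10.7 TPM in replicates 1 and 2, and Slc25a13-203 26.1 and 27.7. The second quantification also put Slc25a12-207 first, with 62.7% and 54.6% of the gene in replicates 1 and 2. Slc25a12-207 lacks exon 4 (116 bases, mm10 chr2:71333605-71333720) and ends in an exon of 664 bases, where that of Slc25a12-206 has 4291. Which of these features placed the reads on Slc25a12-207 was not tested.

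For glutamate and ornithine, 1 gene of each pair carried the signal. The glutamate carrier Slc25a22 had 13.5 and 15.8 TPM in replicates 1 and 2, 86.1-fold above Slc25a18, which had 8 counts in each heart. The ornithine carrier Slc25a15 had 5.85 and 6.19 TPM, 28.6-fold above Slc25a2, which had 6 and 8 counts in replicates 1 and 2. Slc25a44, a carrier of branched-chain amino acids, averaged 6.59 ± 0.156 TPM, and Slc25a38, which supplies glycine for heme synthesis, 4.27 ± 0.841.

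Among carriers of cofactors, nucleotides and metals, all 13 found were expressed, and together they held 242 ± 10.3 TPM. Slc25a52, listed as an NAD carrier in human, has no gene in these tables. Slc25a39, a glutathione carrier, led with 73.0 and 65.6 TPM in replicates 1 and 2, and exceeded its relative Slc25a40 10.6-fold, a log2 ratio of 3.41 that was 4.07 in the second quantification. Slc25a51, which imports NAD, had 53.4 and 52.9 TPM. Slc25a36, a carrier of pyrimidine nucleotides, had 22.9 and 24.2 TPM in replicates 1 and 2, 5.96-fold above Slc25a33, which carries the same class of substrates and had 3.88 and 4.01 TPM.

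The carriers tied to coenzyme A were near each other: Slc25a42 had 12.4 and 13.5 TPM in replicates 1 and 2, and Slc25a16 had 10.9 and 11.0. Their log2 ratio of 0.24 became -0.12 in the second quantification, with overlapping libraries there. The peroxisomal cofactor carrier Slc25a17 averaged 14.4 ± 0.453 TPM. Slc25a32, linked to folate or FAD, averaged 5.94 ± 0.594 TPM, and the S-adenosylmethionine carrier Slc25a26 4.84 ± 0.714.

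The relatives of the uncoupling proteins were low, at 11.9 ± 1.36 TPM over 3 genes. Slc25a30 had 7.77 and 9.30 TPM in replicates 1 and 2, 4.78-fold above Slc25a14, which had 1.74 and 1.82. Slc25a27 lay just above the threshold, with 1.43 and 1.74 TPM. Slc25a46, an outer-membrane member tied to mitochondrial fusion and fission, averaged 19.8 ± 0.601 TPM.

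Less characterised members held 25.4 ± 1.54 TPM, and 4 of 8 were expressed. Slc25a34 had 14.9 and 15.6 TPM in replicates 1 and 2, 23.7-fold above Slc25a35 with 0.63 and 0.66. Slc25a47 averaged 3.29 ± 0.226 TPM, Slc25a53 3.29 ± 0.530 and Slc25a45 2.54 ± 0.219. Slc25a43 had 0.30 and 0.36 TPM, and was the single carrier with counts whose mean differed more than 2-fold between quantifications, 2.58-fold higher in the second. Slc25a48 had 3 counts in each heart, and Slc25a54 had 0 in both.

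Of the 15 pairs of related carriers that could be set against each other, 13 did not overlap between their genes, against 94.8% of all pairs of expressed protein-coding genes, so the count is no result about the carriers as such. The first gene of the pair was higher in 11 and the second in 2. Slc25a28 over Slc25a37 and Slc25a25 over Slc25a24 overlapped. By CPM, which leaves transcript length out, 14 pairs did not overlap, since Slc25a28 then lay below Slc25a37 in both hearts (log2 ratio -1.15). The sizes of some ratios also moved by over 1.5 times by CPM. The log2 ratio by CPM was 2.55 for Slc25a4 over Slc25a5, 6.27 for Slc25a15 over Slc25a2 and 2.64 for Slc25a39 over Slc25a40. It was -3.28 for Slc25a33 over Slc25a36 and -3.25 for Slc25a14 over Slc25a30. Coding sequences of the pairs were 50.2% (Slc25a11 and Slc25a10) to 77.4% (Slc25a4 and Slc25a5) identical.

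**Figure D3:**
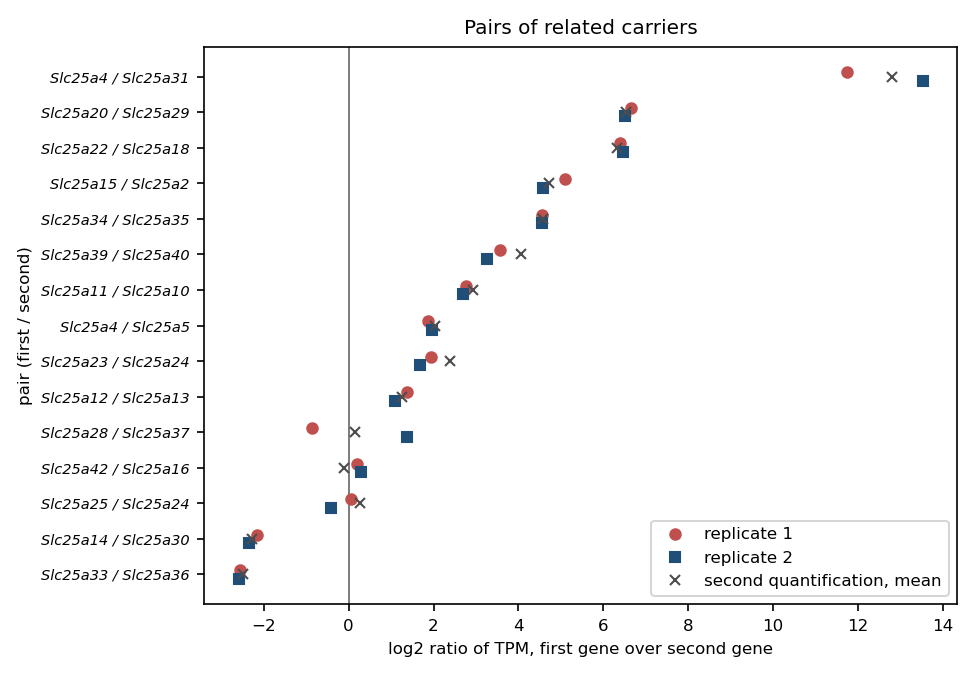
Log2 ratio of TPM, first gene over second, for 15 pairs of related carriers, with replicate 1 as circles, replicate 2 as squares and the mean of the second quantification as crosses. Slc25a28 over Slc25a37 lies on opposite sides of 0 in the hearts, at -0.87 in replicate 1 and 1.38 in replicate 2.

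Some of these genes lie side by side. With no protein-coding gene between them in mm10, Slc25a29 and Slc25a47 are 162 bases apart on chromosome 12, and Slc25a41 and Slc25a23 2056 bases apart on chromosome 17. Slc25a54 and Slc25a24 lie 6461 bases apart on chromosome 3, and Slc25a43 and Slc25a5 18448 bases apart on chromosome X. In each of these neighbourhoods one gene was expressed and the other stayed under a TPM of 1 in the first quantification. For Slc25a29 this was by a small margin. It had 1.09 and 1.44 TPM in replicates 1 and 2 in the second quantification, and 1.06 and 1.19 by posterior mean. Slc25a43 and Slc25a5, for example, had means of 0.33 and 370 TPM. In all, the carriers lie on 19 chromosomes.

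Among the 35 expressed carriers with more than 1 annotated transcript, 26 had the same leading transcript in both hearts and both quantifications, or 74.3%, against 66.6% of expressed protein-coding genes with more than 1 transcript. In 8 of them the leader held over 75% in every library and quantification. In replicate 1 of the first quantification the leader was not classed as protein-coding for 3 carriers, Slc25a12, Slc25a47 and Slc25a53. For Slc25a47 and Slc25a53 the leader was not the same in every library and quantification. In replicate 2 a transcript with a retained intron led Slc25a37, as given below.

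Between the hearts, counts were compared as the log2 ratio of replicate 1 over replicate 2 after TMM scaling (a scaling that sets most genes to no difference), with an exact 95% Clopper-Pearson interval of the counting error. The ratio compares 2 libraries and has no replicate check. Of 37 carriers tested, 32 lay within 0.25 of 0, and the median was 0.02, against 0.003 over all genes. A carrier was called at a 2-fold ratio whose interval left out equality, and Slc25a37 was the only one called. It was called higher in replicate 1; of all genes tested, 0.537% were called higher and 0.324% lower. The interval narrows as counts rise, and it lay above 0 for every carrier from Slc25a4 down to Slc25a23 by mean TPM. Carriers and all genes are thus not compared at equal counts here. It lay wholly above 0 for 11 of the 37 carriers, against 13.3% of all genes tested. It lay wholly below 0 for 2 of the 37, against 10.4%.

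Those 2 were Slc25a40, with a log2 ratio of -0.25, and Slc25a53, with -0.37, which was chosen after its value was seen. On the other side, Slc25a25 had a log2 ratio of 0.37 (0.21 to 0.53) and Slc25a39 of 0.30 (0.22 to 0.38). Signs this close to 0 depend on the scaling. With all carriers tested, 23 were above 0 and 14 below after TMM scaling, 14 and 23 by total counts, and 6 and 31 by the spike-ins, which move the median of all genes to -0.13.

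**Figure D4:**
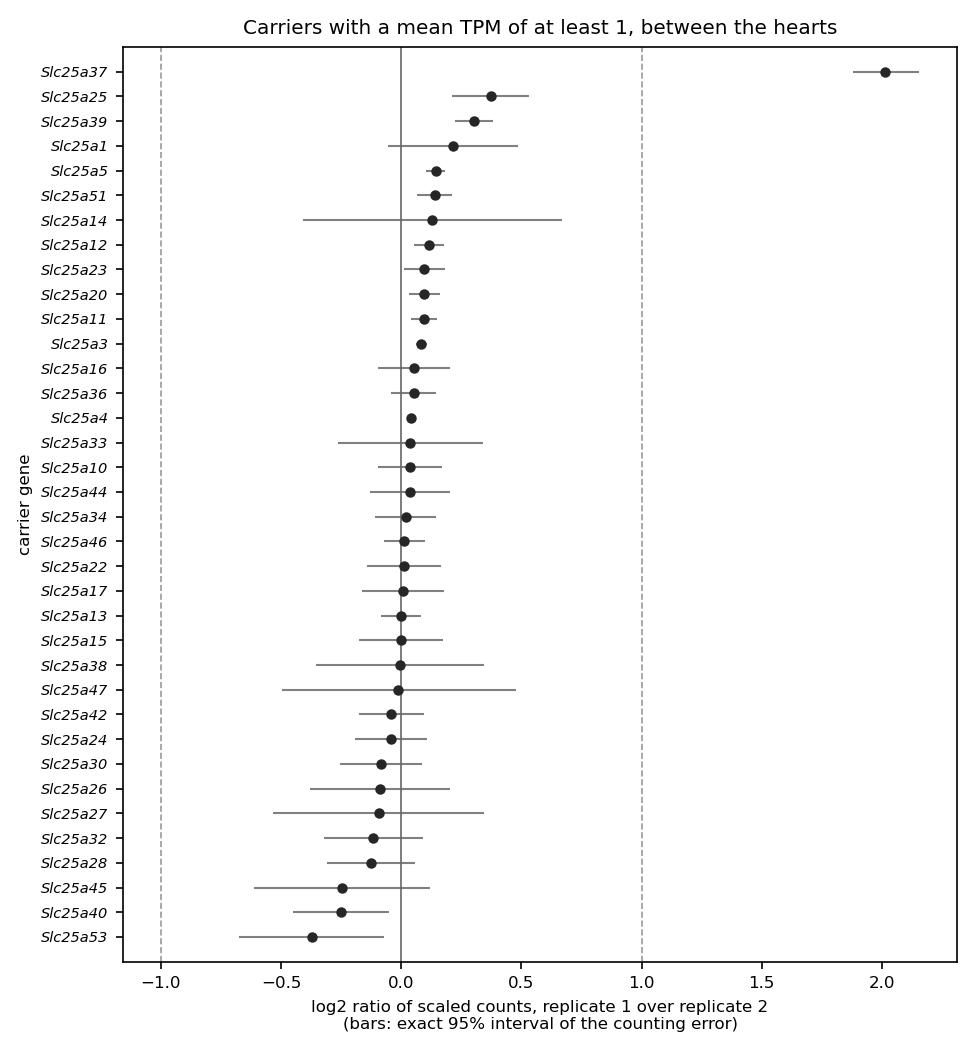
Log2 ratio of scaled counts, replicate 1 over replicate 2, for 36 carriers, with exact 95% intervals of the counting error and dashed lines at 2-fold in each direction. Slc25a37 at 2.01 stands apart, and 31 of the 36 lie within 0.25 of 0.

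Slc25a37 encodes mitoferrin 1, the iron importer that developing red cells use for heme synthesis, and Slc25a28 encodes mitoferrin 2, the form of most other tissues. Slc25a37 had 2303 counts in replicate 1 and 528 in replicate 2, or 19.5 and 4.63 TPM. The log2 ratio was 2.01 (1.88 to 2.15). Slc25a28 had 495 and 501 counts, or 10.6 and 12.1 TPM, in replicates 1 and 2. By TPM, mitoferrin 1 was thus above mitoferrin 2 in replicate 1 and below it in replicate 2. The order in replicate 2 rests on the scaling for length, since CPM there were 16.3 for Slc25a37 and 15.5 for Slc25a28.

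The difference lay mostly in the protein-coding transcript. Slc25a37-201 had 1810 and 147 counts in replicates 1 and 2, or 15.8 and 1.47 TPM, a log2 ratio of 3.51 (3.27 to 3.77). Slc25a37-203, which keeps an intron, had 434 and 340 counts in replicates 1 and 2, or 2.65 and 2.37 TPM, a log2 ratio of 0.24 (0.03 to 0.45). The intervals of the 2 transcripts did not overlap, but they cover counting error only. They leave out how shared reads were divided between the transcripts. Slc25a37-201 therefore held 81.3% of the gene's TPM in replicate 1 and 31.7% in replicate 2. The second quantification gave log2 ratios of 4.43 for Slc25a37-201 and 0.11 for Slc25a37-203. In replicate 2 it put 15.1% of the gene's TPM on Slc25a37-201 and 24.1% on all protein-coding transcripts. In replicate 1 both shares were 77.3%.

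The forms part at the intron mm10 chr14:69247638-69249393 (1756 bases, minus strand). The 60 bases across that point are given because they separate spliced from retained reads. Lower case marks the last 30 bases of the shared exon, and capitals mark the 30 bases that follow it, the next exon in the spliced form and the intron in the retained form.
Slc25a37-201: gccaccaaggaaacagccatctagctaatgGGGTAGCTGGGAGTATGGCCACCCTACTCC
Slc25a37-203: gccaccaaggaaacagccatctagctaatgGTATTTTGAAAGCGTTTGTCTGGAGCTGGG
The transcripts share the exon up to this point and go on with unlike sequence.

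**Figure D5:**
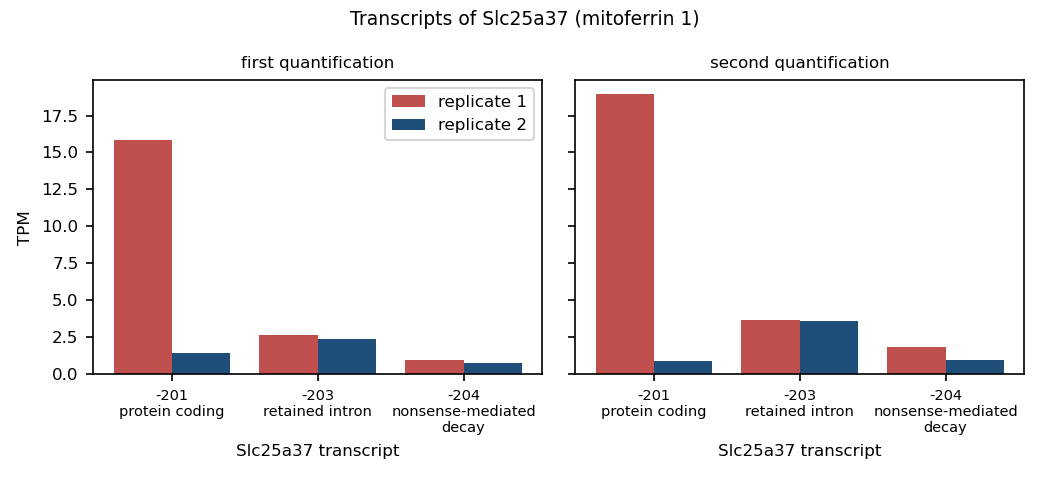
TPM of transcripts of Slc25a37 in replicate 1 and replicate 2, in the first quantification (left) and the second (right). A further protein-coding transcript is not shown. The protein-coding transcript Slc25a37-201 stands at 15.8 in replicate 1 and 1.47 in replicate 2 in the first quantification, and the transcript with a retained intron at 2.65 and 2.37.

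Markers of red cells moved with Slc25a37. Of 11 red cell markers listed, 10 were found, and their summed TPM was 17285 in replicate 1 and 226 in replicate 2. All 6 with a TPM of at least 1 in both libraries were higher in replicate 1, and 5 of them were called. Alas2, the first enzyme of heme synthesis in red cells, had 4322 and 49 counts in replicates 1 and 2. Klf1, a transcription factor of red cell precursors, had 4 and 0 counts. Markers of skeletal muscle were also higher in replicate 1, with summed TPM of 51.9 in replicate 1 and 14.4 in replicate 2 and 4 of the 5 expressed in both libraries called. Nerve markers summed to 27.6 and 6.40 TPM in replicates 1 and 2, with 1 of the 2 expressed in both called. Brown fat markers summed to 38.6 and 31.1 TPM in replicates 1 and 2. Neither of those expressed in both was called, with log2 ratios of -0.27 for Ucp1 and 0.27 for Cidea. The others listed were under a TPM of 1 in replicate 2. Adipoq had 81 and 16 counts in replicates 1 and 2, Plin1 198 and 51, and Cfd 4 and 0. By mean TPM, Adipoq and Plin1 met the call rule, with log2 ratios of 2.20 and 1.84. Other lists did not rise in replicate 1. All 4 macrophage and all 4 fibroblast markers were lower there, with median log2 ratios of -0.34 and -0.14. Of 4 endothelial markers 3 were higher in replicate 1, with a median of 0.05, and of 9 cardiomyocyte markers 5 were. None of the markers on these other lists was called. The part of any of these cells in the level of Slc25a37 was not tested. Slc25a38, the glycine carrier for heme synthesis, had a log2 ratio of -0.01 (-0.35 to 0.34).

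Family members named otherwise add to the picture. Ucp2 had 152 ± 3.64 TPM, Ucp3 7.51 ± 1.10 and Ucp1, the uncoupling protein of brown fat, 5.24 ± 0.912. The outer-membrane relatives Mtch1 and Mtch2 had 160 ± 1.55 and 84.7 ± 0.10 TPM. By TPM, Ucp2 and Mtch1 were thus above Slc25a11, the highest carrier after the phosphate and ADP/ATP carriers. For Ucp2 this rests on the scaling for length. Ucp2 had 4846 and 4231 counts in replicates 1 and 2, Slc25a11 5940 and 5153, and Mtch1 6100 and 5548. All 6 genes listed for the import of carrier proteins into the inner membrane were expressed, with summed TPM of 173 and 191 in replicates 1 and 2.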

How the data were processed

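Total RNA from 2 heart samples of 1 group was analysed. The authors quantified reads on mm10 with annotation M21, per the notes deposited beside the tables. Which programs they ran is not given in the sources used for this text. The deposited gene tables hold expected counts and TPM by the authors, with posterior means and SDs, and a second deposited transcript table holds estimated counts and TPM, summed per gene here. The deposited transcript tables also hold the authors' percent of each transcript within its gene, recomputed here from TPM. Depth was 36175363 and 32509660 expected counts in replicates 1 and 2. Intervals and floors cover counting error only: reads carry no molecular identifiers and are not independent.

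The members, lists, pairs and rules were chosen with earlier results of these data known. Expression meant a TPM of at least 1 in both libraries. A pair was apart when both libraries of one gene lay above both of the other. Between libraries, rounded expected counts were TMM-scaled with edgeR 4.0.16 in R 4.3.3 (prior count 0.5). Calls needed a 2-fold ratio, a summed count of 20 or more, a mean TPM of 1 or more and an exact 95% interval without equality. The rule was tested on simulated data. Per-library values are given for the 12 highest members, pairs, called members, members at 0 counts, those next to the threshold and those whose quantifications differ over 2-fold.

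Sequences and coding lengths came from GENCODE M21 transcripts; identities are of coding sequences in place of proteins (Biopython 1.88). Python 3.11.15, numpy 2.4.6, pandas 2.3.3 and scipy 1.17.1 were used. Alternatives covered the second quantification, rescaled and posterior mean TPM, CPM, other thresholds, DESeq2 1.42.0 size factors, total counts, spike-ins and each library alone. Alleles of the parental strains were not analysed here. The single values of 1 carrier are not reported here, though it counts in totals.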

Additional observations from a re-analysis of the deposited data

How the results depend on the processing

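The number of expressed carriers was 37 with each library alone, 38 in the second quantification and by posterior mean TPM, and 39 after rescaling TPM to nuclear protein-coding genes. The median TPM of expressed carriers was 15.4 in the second quantification, 24.9 after rescaling and 11.7 by posterior mean, and 12.1 to 12.2 with 1 library left out. The summed TPM was 4411 in the second quantification, 7398 after rescaling and 3313 by posterior mean, and the sum by CPM without length scaling was 4266; these scales differ by construction. A threshold of 0.5 TPM gave 39 expressed carriers and one of 5 gave 28. The share of the upstream exon of Slc25a3 was 72.1% in the second quantification, and the cause was not tested. Slc25a42 over Slc25a16 reversed to -0.12 there, and Slc25a25 over Slc25a24 changed from overlapping to apart at 0.26; the cause was not tested.

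Without a filter on TPM or summed count, 2 carriers were called between the hearts, Slc25a37 and Slc25a31, both higher in replicate 1. Of all 55536 genes, 333 were then called higher in replicate 1 and 251 lower. Slc25a31 rests there on 23 and 6 counts in replicates 1 and 2. Slc25a37 was the single carrier called under DESeq2 size factors, total counts, spike-ins, the second quantification and a 1.5-fold threshold. Under these, 60 (spike-ins) to 177 (1.5-fold) genes were called higher in replicate 1. Those called lower were 42 (DESeq2 size factors) to 134 (1.5-fold). The genes tested were 13598, or 14442 in the second quantification. By total counts 9 fewer carriers lay above 0 than after TMM scaling, and by spike-ins 17 fewer. Among the carriers whose interval left out 0 after TMM scaling, the log2 ratio of Slc25a4 reversed to -0.0039 by total counts, and by spike-ins ratios reversed for Slc25a4 (-0.093), Slc25a3 (-0.051), Slc25a11 (-0.038), Slc25a20 (-0.037), Slc25a12 (-0.020) and Slc25a23 (-0.037), by construction, since that scaling shifts all genes by about the same amount.

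No paired analysis was possible because there is 1 group. With 2 libraries, an SD rests on 2 values, and 7 carriers had 10 or fewer counts in each, so their ratios carry wide counting error.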
